A study of Mus musculus with 9 samples.

Results

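The genes described here encode the initiation and elongation factors of cytosolic translation, together with the kinases, inhibitors and methyltransferases that share their names. They were taken by symbol alone, as probe sets that name exactly 1 gene whose symbol starts with Eif and a digit from 1 to 6, or with Eef and a digit. This gave 118 of 22690 probe sets and 52 of 12393 genes. Of the 52 genes, 50 passed the filter on low signal and were tested among 9397 genes. Eef1aknmt and Eef2kmt, which encode methyltransferases of eEF1A and eEF2, did not pass. The first was above the filter on 1 array and the second on none. Eif2s1, Eif3g and Eif4g1, which encode the phosphorylated subunit of eIF2, an eIF3 subunit and the main eIF4 scaffold, were not analysed here.

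RNA came from primary mouse megakaryocytes, the marrow cells that shed platelets, grown from bone marrow or fetal liver preparations in thrombopoietin and sorted for high CD41 and by forward scatter, a measure of cell size. MKP, MK3 and MK4 have 2 arrays each and MK6 has 3, with the last 3 stages taken to match culture days 3, 4 and 6, and no day given for MKP. No genotype, strain or sex is stated, nor which preparation gave which array, and all stages share the thrombopoietin culture. Nothing in the labels ties the arrays of a stage to different cultures. The p-values therefore reflect the scatter among these samples alone, and that scatter may be technical.

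Translation starts when eIF2 brings the initiator tRNA to the small ribosomal subunit, eIF3 holds that subunit, and the eIF4 proteins bind the mRNA cap and unwind the leader. Elongation then runs on eEF1, which delivers aminoacyl-tRNA, and eEF2, which moves the ribosome on. Phosphorylation of eIF2 and binding of eIF4E by its inhibitor proteins are the main brakes on initiation. Megakaryocytes load platelets with mRNA and with this machinery, and platelets, which have no nucleus, still make protein.

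Many genes of the translation machinery start transcription in a run of C and T, the 5′ terminal oligopyrimidine tract, through which mTORC1 controls their translation. The windows of 30 bases around annotated start sites (15 before and 15 from the start on, RefSeq, GRCm38.p6) are shown for pairs of genes whose array levels are set side by side in the results. Capitals mark the longest run of C and T anywhere in the window, on the strand that reads like the mRNA.
Eef1a1: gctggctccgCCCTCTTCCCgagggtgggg
Eef1a2: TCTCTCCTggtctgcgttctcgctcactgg
Eif2s3x: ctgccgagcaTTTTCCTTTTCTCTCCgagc
Eif2s3y: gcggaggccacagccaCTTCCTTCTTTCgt
Eif3f: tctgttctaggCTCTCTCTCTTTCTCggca
Eif3l: gcgcggagTTCTTCTTCCgctctctcccac
These windows lie at chr9:78481710-78481739 (minus strand, Eef1a1), chr2:181157001-181157030 (minus, Eef1a2), chrX:94212637-94212666 (minus, Eif2s3x), chrY:1010580-1010609 (plus, Eif2s3y), chr7:108934400-108934429 (plus, Eif3f) and chr15:79075208-79075237 (plus, Eif3l). A run of at least 8 C or T anywhere in such a window was found in 11 of the 42 family genes with a promoter entry (26.2%). The share was 15.2% of 7628 tested genes with an entry and 13.9% of all 27025 genes. The run could lie wholly before the start site, as in Eef1a2, so these are not counts of oligopyrimidine tracts. The run in Eef1a1 is 10 bases long and the run in Eif2s3x 16.

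The 280 bases from 250 before the start of Eif4a1 to 30 past it (minus strand, chr11:69672394-69672673) are shown because this gene had the largest difference in the family. Capitals mark CACGTG, the E-box that Myc and its relatives can bind.
Eif4a1: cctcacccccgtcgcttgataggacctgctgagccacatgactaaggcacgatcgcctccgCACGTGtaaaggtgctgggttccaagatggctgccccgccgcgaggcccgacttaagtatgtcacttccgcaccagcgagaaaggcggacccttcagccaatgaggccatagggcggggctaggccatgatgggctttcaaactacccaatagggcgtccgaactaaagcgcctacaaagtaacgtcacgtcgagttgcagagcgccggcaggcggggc
The hexamer is its own reverse complement, so both strands were read at once, and a run of C and T cannot contain it. It starts at position -189 from the start site. At least 1 copy stood within 250 bases before to 50 bases after a start site in 11 of the 42 family genes (26.2%), against 11.7% of 7628 tested genes and 8.09% of all 27025 genes. The tested carriers were Eef2, Eef2k, Eif1b, Eif3a, Eif3f, Eif3k, Eif4a1, Eif4e, Eif4h and Eif5a. Their MK6 minus MKP differences had a median of -0.42 log2 units and a range of -1.62 to 0.23, beside a median of -0.10 for the 30 tested members without it. The corresponding medians were -0.22 and -0.19 at MK4 and -0.32 and -0.31 at MK3. For the run of C and T, the 11 tested carriers had a median of -0.03 at MK6 against MKP and the 29 others -0.16. These counts describe letters in a window and say nothing of binding.

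All signals below are MAS5 probe set intensities after each array was scaled to a common trimmed mean of 161, from deposited means of 102 to 221. Differences are in log2(signal + 15.2) units, and errors after ± are standard errors from limma unless an SD is named. The 3′ to 5′ signal ratio of beta-actin, a gauge of broken RNA, stood at 1.49, 1.33 and 3.21 on MK6 replicates 1, 2 and 3, against 0.957 to 1.09 on the 6 arrays of earlier stages. The same ratio of Gapdh stood at 0.996, 1.13 and 3.27 on MK6 replicates 1, 2 and 3, against 0.805 to 0.97 on the 6 earlier arrays. By Gapdh, replicates 1 and 2 were thus only slightly above those arrays. Replicate 1 is the MK6 array titled without a number. The lowest trimmed means were those of MK6 replicates 1 and 3. Within the family, Pearson's r across the 50 genes, which are not independent replicates, was 0.954 to 0.989 for the 6 array pairs that share a stage and 0.925 to 0.989 for the other 30. Of 15 listed megakaryocyte genes 11 were tested. Their summed signal was 10700 to 11300 in MKP, 10600 to 23200 in MK3, 19500 to 23700 in MK4 and 18100 to 21200 in MK6, where Pf4, platelet factor 4, alone gave 11300, 7270 and 9220. The 11 genes did not move as one at the last stage, with 8 of 11 negative in MK6 against MK4 (median -0.59, none called). Itgb3, the integrin partner of CD41, read 143, 56.4 and 15 at MK6 against 262 and 270 at MKP (-2.01, adjusted p = 0.057 by limma), so on MK6 replicate 3 it was below the filter on low signal. Neutrophil markers (12 of 12 tested) summed to 40600 to 49700 in MKP, 36800 to 37000 in MK3, 26700 to 28500 in MK4 and 7150 to 30200 in MK6, and their mean log2 level at MK6 was 8.79, 10.57 and 8.16 on replicates 1, 2 and 3. Hepatocyte markers (7 of 9 tested) summed to 598 to 633 in MKP, 3140 to 4040 in MK3, 494 to 1050 in MK4 and 126 to 326 in MK6, and macrophage markers (10 of 10 tested) to 10300 to 12800, 15500 to 30600, 12800 to 17100 and 11700 to 25600 in the same order of stages. Erythroid markers (6 of 10 tested) summed to 951 to 1910 and mast cell markers (8 of 8 tested) to 645 to 2490 over the 9 arrays. No marker was listed at exactly 0. The part of these other cells in the results below was not tested. In such bulk samples, fewer cells of a type and less RNA per cell cannot be told apart.

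As a whole, the family was slightly dimmer on the later arrays than on the MKP arrays. Its 50 genes made up 1.53%, 1.89% and 2.13% of the summed signal on the MK6 arrays, against 2.18% and 2.06% on the MKP arrays. The shares in between were 1.77% and 1.74% at MK3 and 1.95% and 1.69% at MK4. The ranges of MK6 and MKP overlapped, while both MK3 and both MK4 shares lay below both MKP shares. Against the gene's own mean over 9 arrays, 42 and 38 of the 50 genes were above it on the MKP arrays, 19 and 21 at MK3, 31 and 14 at MK4, and 11, 31 and 31 at MK6. Of all genes, 47.8% and 44.9% were above their own mean on the MKP arrays, 49.1% and 40.2% at MK3, 52.8% and 44.6% at MK4, and 60%, 46.8% and 60.7% at MK6, so the 31 of 50 on MK6 replicate 3 is near the share of all genes. MK6 replicate 1 held the fewest family genes, and it stood apart from the other MK6 arrays across most of the family.

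**Figure D1:**
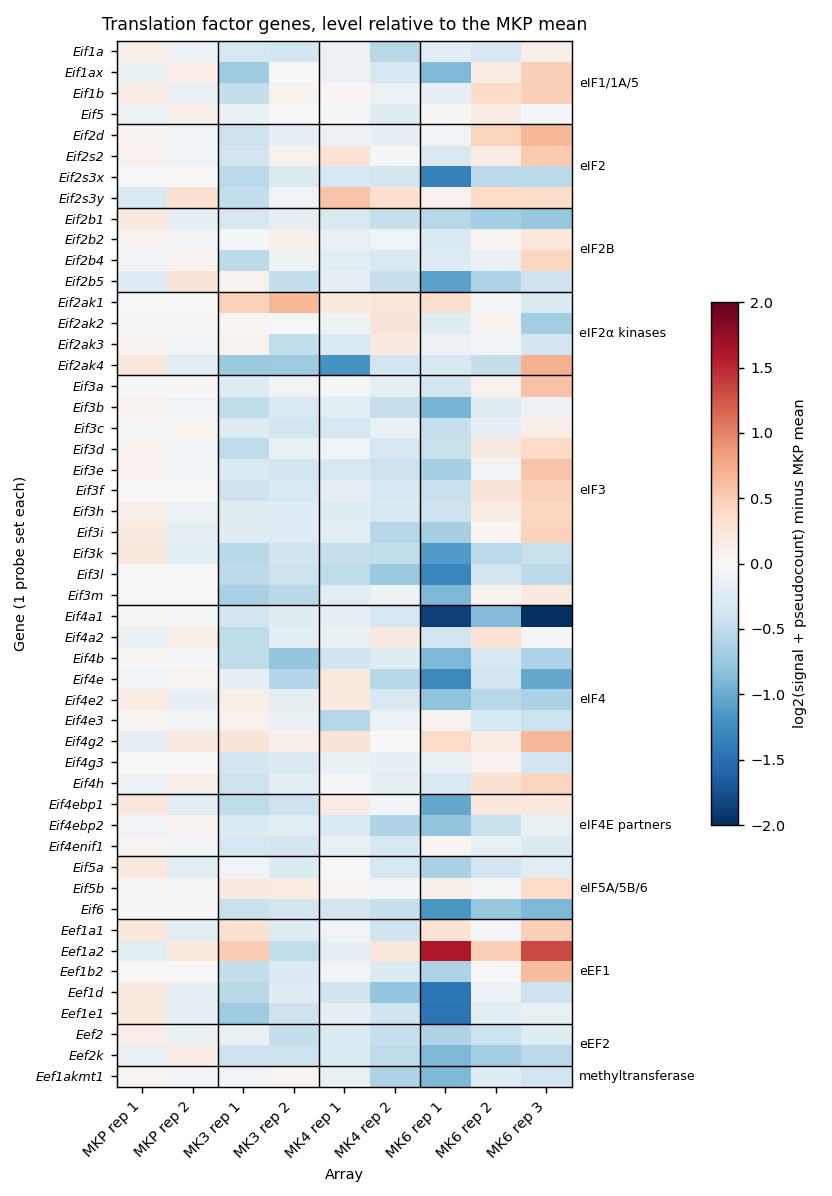
Levels of the 50 tested translation factor genes on each array (columns, by stage) as the difference of log2(signal + 15.2) from the gene's MKP mean, with genes in rows by role and colour limits at -2 and 2. Blue, below the MKP mean, fills most cells of MK6 replicate 1, and Eif4a1 is blue on all 3 MK6 arrays, at scaled signals of 982, 1981 and 811.

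For MK3 against MKP, the first step of the course, the median difference of the 50 genes was -0.31, beside -0.04 over all 9397 genes, and 42 of the 50 differences were negative. The MK3 and MKP arrays did not overlap in 31 genes in the lower direction, where 26.5% of all genes were so, and in 2 in the higher, Eif2ak1 and Eif5b, where 19.4% were. For MK4 against MKP the median was -0.24, beside 0.02 over all genes, with 29 genes lower without overlap, where 23.2% of all genes were so, and 2 higher, Eif2ak1 and Eif2s3y, where 23.6% were. Without scaling, the MK4 minus MKP median of the family was 0.06 and that of all genes 0.29, so its sign depends on the scaling. Less the median of all genes, it stayed between -0.26 and -0.20 under 4 scalings. The MK3 minus MKP median stayed between -0.34 and -0.25 under them, and between -0.33 and -0.26 less the median of all genes. With single arrays left out, the MK4 minus MKP median ran from -0.32 to -0.15, the last without MK4 replicate 2. No member passed the test in either comparison by limma with Benjamini-Hochberg adjustment, where 0.0532% of all genes did at MK3 and 0% at MK4. At an unadjusted p below 0.05 there was 1 member at MK3, Eif4b at -0.64, where 9.91% of all genes were so, and 0 at MK4, where 6.58% were. These comparisons share the MKP arrays and are not independent.

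For MK6 against MKP, the whole course, 2 of the 50 genes passed the test and both fell: Eif4a1, the RNA helicase that unwinds mRNA leaders, and Eif6, which keeps large ribosomal subunits from joining small ones too early. Over all genes 5.69% passed, 2.94% of them lower and 2.76% higher, so the 2 members (4% of 50) are a share near the background. The median difference of the family was -0.15, beside 0.13 over all genes. It was -0.31 without MK6 replicate 3 and -0.066 without MK6 replicate 1, its extremes over single arrays left out. The family median stayed negative under 4 scalings (-0.50 to -0.13), over which the median of all genes ran from -0.20 to 0.13. At an unadjusted p below 0.05 there were 12 members, where 23.8% of all genes were so. Of these, 11 were lower and 1 higher, beside 11.1% and 12.7% of all genes. The groups did not overlap in 16 genes in the lower direction and 1 in the higher, where 18.8% and 24.5% of all genes were so. With every probe set fitted on its own, 6 of 104 family probe sets were lower and 0 higher, beside 4.27% and 2.64% of all probe sets.

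**Figure D2:**
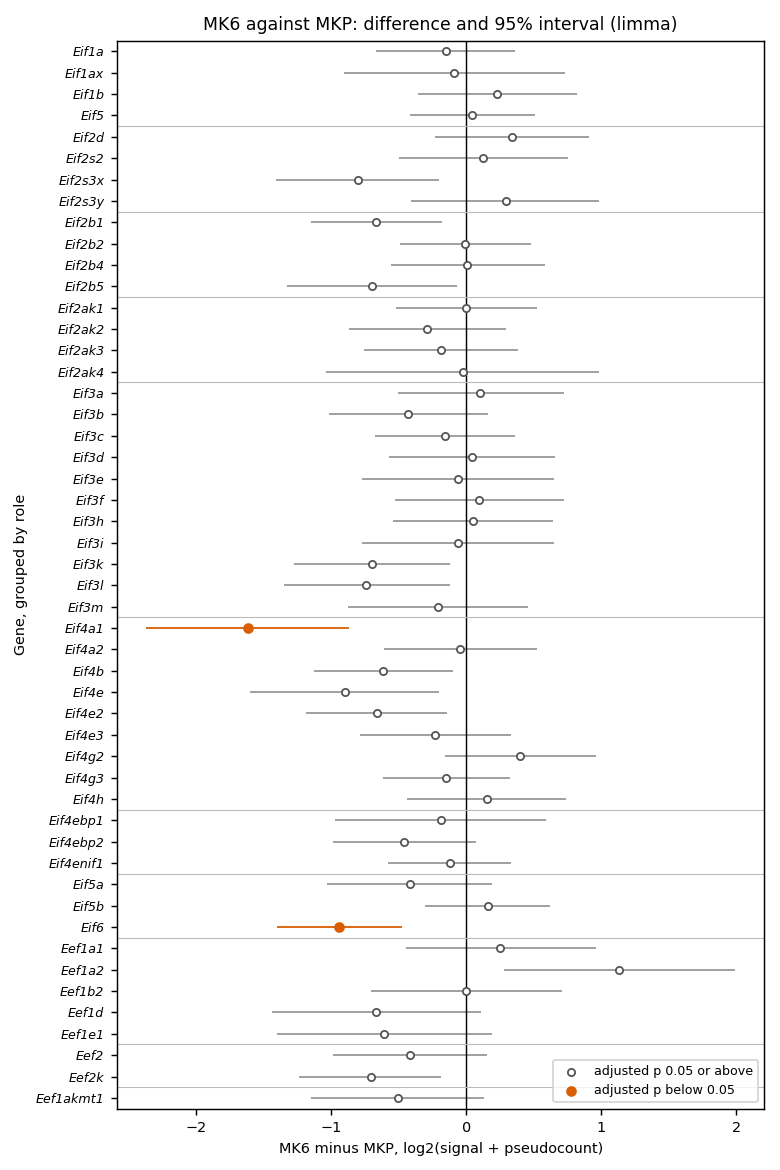
MK6 minus MKP difference of each of the 50 genes (points, log2 units) with its 95% interval from limma, grouped by role. Filled points, adjusted p below 0.05, are Eif4a1 at -1.62 and Eif6 at -0.94, and Eef1a2 at 1.13 is the point farthest to the right.

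No member passed the test in the later steps. For MK4 against MK3 limma called 0 members and 0.0106% of all genes, and 0 members had an unadjusted p below 0.05, where 3.59% of all genes did. The family median was 0.03 beside 0.05 for all genes. MK4 and MK3 arrays did not overlap in 10 members in the higher direction, where 17.5% of all genes were so, among them Eif4b, Eif4h, Eif4a2 and Eif4ebp1. In the lower direction there were 5, beside 12.7%: Eef1akmt1, Eif2ak1, Eif2b2, Eif4ebp2 and Eif5b. For MK6 against MK4 there were 0 members called, where 0.0213% of all genes were, and 5 at an unadjusted p below 0.05, where 10.5% were. The family median was -0.01 beside 0.09, and ran from -0.11 without MK6 replicate 3 to 0.17 without MK6 replicate 1. The 5 were Eif4a1 (-1.37), Eif4e (-0.72), Eif4e2 (-0.61), Eif6 (-0.52) and Eef1a2 (1.12). MK6 arrays lay below both MK4 arrays in 6 members (Eef2k, Eif2b1, Eif2s3x, Eif4a1, Eif4e2 and Eif6), beside 9.82% of all genes, and above both in 3 (Eef1a1, Eef1a2 and Eif2d), beside 14.8%. In the moderated F test over the steps, 0 members passed, where 2.79% of all genes did, and 4 had an unadjusted p below 0.05, where 17.1% did. The 4 were Eif4a1 (adjusted p = 0.056), Eif6 (0.11), Eef1a2 (0.21) and Eif4e2 (0.26).

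**Figure D3:**
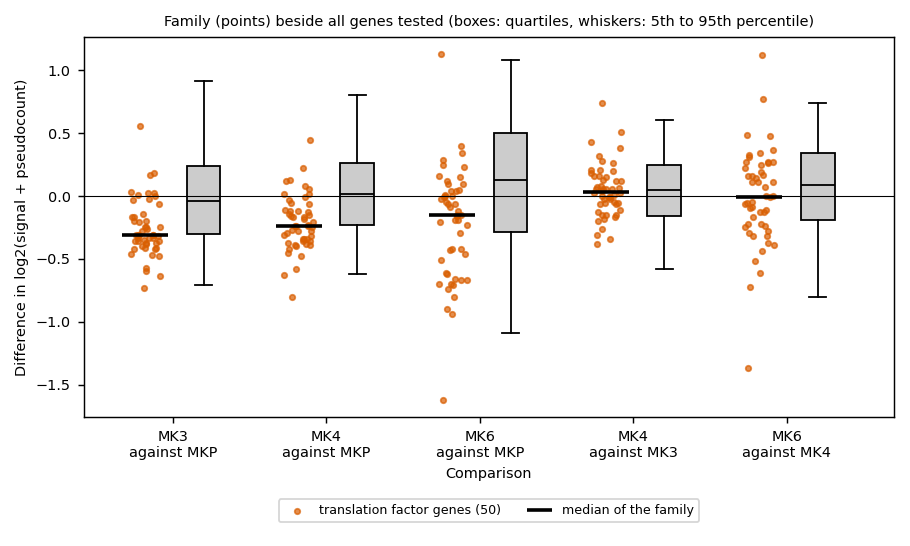
Differences of the 50 translation factor genes (points, black bar at their median) beside all 9397 tested genes (boxes at the quartiles, whiskers at the 5th and 95th percentiles) in 5 comparisons, in log2 units. The family median is -0.31 at MK3, -0.24 at MK4 and -0.15 at MK6 against MKP, where the median of all genes is -0.04, 0.02 and 0.13.

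The eIF4 group, which binds the cap, held the largest difference. Of 9 tested members 1 fell, where 2.94% of all genes did, and the median was -0.23 beside 0.13 over all genes. Eif4a1 had signals of 3672 and 3548 at MKP, 2787 and 3047 at MK3, 3234 and 2834 at MK4, and 982, 1981 and 811 at MK6. Every MK6 array lay below every other array, with replicate 2 nearest to them. The MK6 minus MKP difference was -1.62 ± 0.34 (adjusted p = 0.023, limma). Its other probe sets gave -1.91, also called (adjusted p = 0.024 over all probe sets), and -0.35, not called (adjusted p = 0.48). The call was lost without MKP replicate 1 (-1.59, adjusted p = 0.21), MKP replicate 2 (-1.64, adjusted p = 0.18) or MK6 replicate 3 (-1.36, adjusted p = 0.072). Without MK6 replicates 1 and 3 together, a choice made after seeing the data, the difference was -0.86 (adjusted p = 0.17). Adding the beta-actin ratio to the model gave -0.94 (adjusted p = 0.49), and unscaled arrays -1.98 (adjusted p = 0.071).

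Eif4e, the cap-binding protein itself, had signals of 768 and 832 at MKP, 710 and 528 at MK3, 928 and 534 at MK4, and 319, 611 and 384 at MK6. The MK6 arrays lay below both MKP arrays, and the difference was -0.90 ± 0.32 (adjusted p = 0.12). Its probe sets disagreed, since the other pair gave -0.13 and 0.65. Eif4e2, a cap-binding protein that represses translation, was -0.66 and Eif4b, a cofactor of the helicase, -0.62, neither past the test. The other 3 tested probe sets of Eif4e2 were of opposite sign, at 0.14, 0.32 and 0.45, while those of Eif4b were at -0.46 and -0.89. Eif4a2, the close relative of Eif4a1, was at -0.05 (95% interval -0.61 to 0.52). Eif4g2, a scaffold used without the cap-binding protein, had the highest value of the group at 0.40, with 0.12 and -0.38 from its other probe sets. The remaining members Eif4e3, Eif4g3 and Eif4h ran from -0.23 to 0.15.

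**Figure D4:**
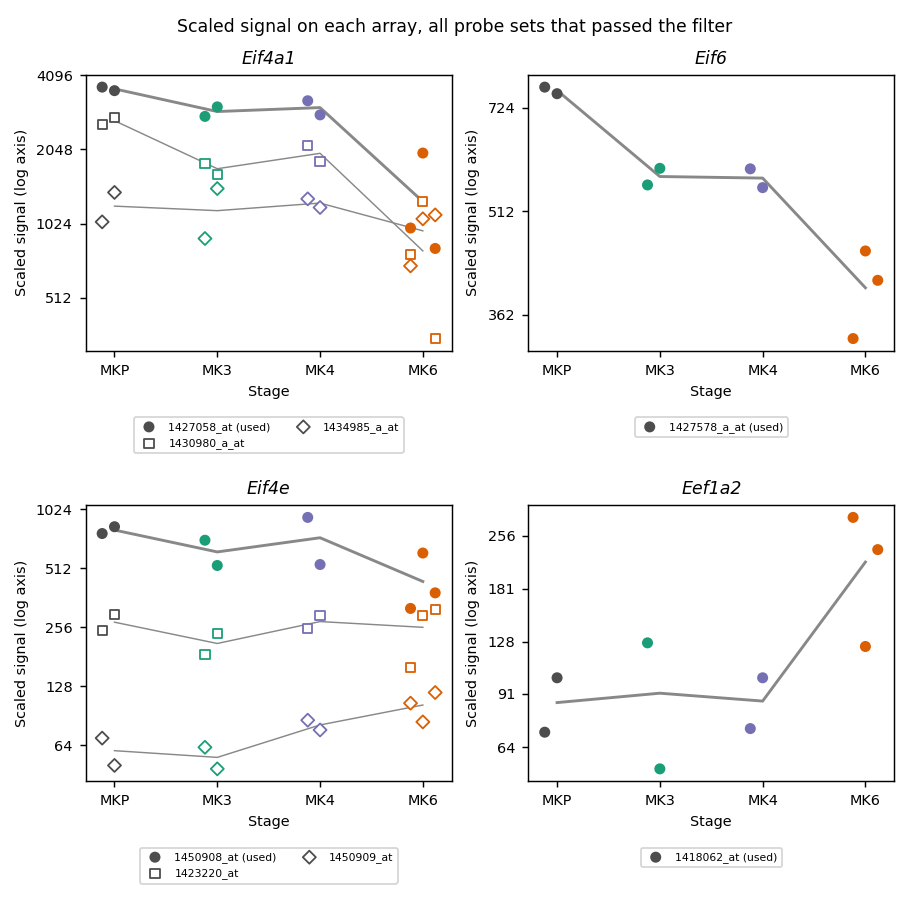
Scaled signal on each array (points, log axis) by stage for Eif4a1, Eif6, Eif4e and Eef1a2, with a marker shape for each probe set that passed the filter, filled for the probe set used, and lines through the stage means of the signal. At MK6, Eif4a1 is at 982, 1981 and 811 and Eif6 at 335, 448 and 406, below all other arrays, and the probe sets of Eif4e run in different directions.

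The inhibitors and partners of eIF4E included 3 tested members, none past the test. Eif4ebp1, whose product blocks eIF4E until mTORC1 phosphorylates it, had signals of 870 and 637 at MKP, 522 and 553 at MK3, 836 and 716 at MK4, and 359, 879 and 866 at MK6. The low MK6 value was that of replicate 1, and the groups overlapped (-0.19 ± 0.35, adjusted p = 0.76), with 0.33 and 0.04 from its other probe sets. Eif4ebp2, a related inhibitor, had 449 and 494 at MKP, 385 and 402 at MK3, 380 and 305 at MK4, and 265, 343 and 425 at MK6. Its MK6 and MKP arrays did not overlap, and the difference was -0.46 ± 0.24 (adjusted p = 0.26), with -1.12, -0.57 and -0.95 from its other tested probe sets. Eif4enif1, which carries eIF4E into the nucleus, was at -0.12.

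Among eIF5A, eIF5B and eIF6, 1 of 3 fell, where 2.94% of all genes did. Eif6 had signals of 776 and 759 at MKP, 559 and 591 at MK3, 590 and 554 at MK4, and 335, 448 and 406 at MK6. The stages formed 3 levels without overlap, with MKP highest, MK3 and MK4 together, and MK6 lowest. The MK6 minus MKP difference was -0.94 ± 0.21 (adjusted p = 0.029, limma). The call was lost without MKP replicate 1 (-0.92, adjusted p = 0.25), MKP replicate 2 (-0.95, adjusted p = 0.21) or MK6 replicate 3 (-0.96, adjusted p = 0.07). It was also lost with arrays scaled to a common median (-1.06, adjusted p = 0.085), unscaled (-1.29, adjusted p = 0.22), without the intensity trend (adjusted p = 0.051) and with the 2 stages fitted alone (adjusted p = 0.061). Without MK6 replicates 1 and 3 the difference was -0.76 (adjusted p = 0.21). The difference was -0.96 with the beta-actin covariate (adjusted p = 0.35).

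Eif5a, the hypusine-carrying factor that helps ribosomes past difficult stretches, had signals of 6423 and 4789 at MKP, 5309 and 4603 at MK3, 5589 and 4341 at MK4, and 3537, 4248 and 4719 at MK6. The difference on this probe set was -0.42 ± 0.28 (adjusted p = 0.37). A second probe set, like the first of a kind that can cross-hybridise, read 808, 1240 and 754 at MK6 against 2260 and 2050 at MKP. Its difference of -1.23 passed the limma test over all probe sets (adjusted p = 0.024). The call for this gene thus depends on the probe set. Eif5b, which joins the ribosomal subunits, was at 0.16.

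The eIF3 scaffold had 11 tested subunits. All 11 were lower at MK3 than at MKP (median -0.33) and at MK4 than at MKP (median -0.28), none past the test. Without scaling 6 of the 11 MK4 minus MKP values were positive, with a median of 0.02 beside 0.29 over all genes. At MK6 the signs were mixed, with 7 negative and 4 positive against MKP and a median of -0.06. The highest value was only 0.10 ± 0.28 (Eif3a). All 11 were negative when arrays were scaled to a common median or left unscaled. Over the 9 arrays, the median distance of the subunits from their own means was 0.24 and 0.10 at MKP, -0.14 and -0.10 at MK3, -0.02 and -0.21 at MK4, and -0.49, 0.12 and 0.51 at MK6. The MK6 arrays thus spanned more than all other arrays together.

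Eif3l, a peripheral subunit that pairs with Eif3k, had signals of 971 and 986 at MKP, 678 and 725 at MK3, 681 and 579 at MK4, and 386, 751 and 676 at MK6. All later arrays lay below both MKP arrays. Its MK6 minus MKP difference was -0.74 ± 0.28 (adjusted p = 0.14), and that of Eif3k -0.70 ± 0.26 (adjusted p = 0.14). A second, dim probe set of Eif3l was above the filter on 2 arrays and gave 0.87, so its probe sets disagreed. Eif3b stood at -0.43, and the other subunits lay between -0.21 (Eif3m) and 0.10 (Eif3a) on the probe sets used. Other probe sets of Eif3a gave -0.08, -0.39 and -1.07, those of Eif3c -0.29, -0.32 and -0.46, and that of Eif3i -0.29. Eif3f, with the longer C and T run shown above, was at 0.09 (95% interval -0.53 to 0.72).

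**Figure D5:**
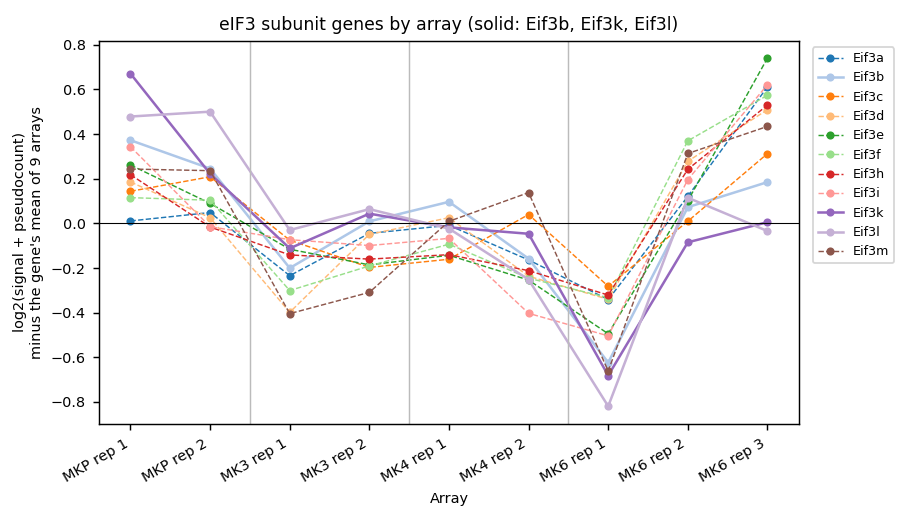
Level of each of the 11 eIF3 subunit genes on each array, as log2(signal + 15.2) minus the gene's own mean over the 9 arrays, with Eif3b, Eif3k and Eif3l as solid lines. All 11 lie below their mean on MK6 replicate 1 and 10 lie above it on MK6 replicate 3, where the median is 0.51.

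Of the 4 tested eIF2 genes none passed the test. Eif2s3x, the X-linked gene of the subunit that holds GTP and the initiator tRNA, had signals of 1214 and 1191 at MKP, 820 and 983 at MK3, 935 and 932 at MK4, and 464, 830 and 822 at MK6. All later arrays lay below both MKP arrays, with MK6 replicate 1 lowest. The MK6 minus MKP difference was -0.80 ± 0.27 (adjusted p = 0.11). Another probe set read 87.5, 111 and 49.9 at MK6 against 273 and 420 at MKP, a difference of -1.91 that passed over all probe sets (adjusted p = 0.0098), while the remaining probe set gave -0.74. The mean of the gene's probe sets gave -1.15 and passed (adjusted p = 0.028).

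Eif2s3y, the Y-linked copy of Eif2s3x, had dim signals of 37.5 and 64.8 at MKP, 30.8 and 46.7 at MK3, 81.3 and 66.8 at MK4, and 53.9, 70.8 and 68.2 at MK6. Some of these values lie below the filter, and the groups overlapped, at 0.29 ± 0.32 (adjusted p = 0.60). Eif2s2, the beta subunit, was at 0.12, with probe sets that disagreed from -0.62 to 0.60. Eif2d, which can place tRNA on the ribosome without GTP, was at 0.34, with -0.15 and 0.01 from its other tested probe sets. The X and Y copies share much of their coding sequence. The probe set used for Eif2s3x is of a kind that can cross-hybridise, so their separate signals are uncertain. By its name, the Eif2s3x probe set at -1.91 is not of that kind.

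eIF2B recharges eIF2 with GTP, and 4 of its genes were tested with none past the test (median -0.34). Eif2b5, the catalytic subunit, had signals of 195 and 284 at MKP, 249 and 165 at MK3, 208 and 167 at MK4, and 104, 148 and 174 at MK6. The MK6 arrays lay below both MKP arrays, and the difference was -0.70 ± 0.29 (adjusted p = 0.17). Eif2b1 was at -0.67, while Eif2b2 and Eif2b4 were within 0.01 of 0, with 95% intervals of -0.49 to 0.48 and -0.56 to 0.58. For Eif2b2 this rests on the probe set used, since its other tested probe sets gave -0.47 and -0.17, neither called.

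The 4 kinases that phosphorylate eIF2 were all tested, none past the test. Eif2ak1, the heme-sensing kinase HRI, had signals of 163 and 163 at MKP, 231 and 267 at MK3, 189 and 196 at MK4, and 206, 161 and 130 at MK6. Its MK3 arrays were the highest, at 0.56 against MKP (adjusted p = 0.51), and the MK6 minus MKP difference was near 0 (95% interval -0.52 to 0.52). Both rest on 1 probe set. The other tested one read 211 and 135 at MK3 against 204 and 183 at MKP, and gave -0.54 for MK6 against MKP (adjusted p = 0.51 over all probe sets). Eif2ak2, the kinase PKR that senses double-stranded RNA, had 164 and 171 at MKP, 173 and 168 at MK3, 156 and 203 at MK4, and 139, 177 and 97.7 at MK6. The low value was MK6 replicate 3, and the groups overlapped (-0.29 ± 0.26, adjusted p = 0.52). Eif2ak4, the amino acid sensor GCN2, was the dimmest tested member, with 56.4 and 37.0 at MKP, 21.3 and 21.9 at MK3, 11.4 and 31.5 at MK4, and 33.9, 28.6 and 84.9 at MK6. Several of these values lie below the filter of 46.7, and the difference of -0.03 ± 0.46 has the wide 95% interval of -1.04 to 0.98. Eif2ak3, the endoplasmic reticulum kinase PERK, was at -0.19.

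Listed genes of the stress response that eIF2 phosphorylation sets off, Atf4 itself among them, were set beside the kinases. The phosphorylation was not measured, and its part in these values was not tested. Of these 12 genes, all tested, 6 rose in MK6 against MKP and 0 fell. Their median was 0.90 beside 0.13 over all genes, of which 2.76% passed as higher. Vldlr, a lipoprotein receptor, had signals of 456, 784 and 857 at MK6 against 99.5 and 93.6 at MKP (2.63 ± 0.44, adjusted p = 0.011, limma). Atf3, a stress transcription factor, had 597, 407 and 543 against 105 and 94.1 (2.20 ± 0.44, adjusted p = 0.019), and was also at 947 and 297 at MK3. Slc7a11, the cystine transporter, differed by 1.63 ± 0.35 (adjusted p = 0.025) and Ddit3, the transcription factor CHOP, by 1.47 ± 0.25 (adjusted p = 0.011). Ppp1r15a, the phosphatase subunit that reverses eIF2 phosphorylation, and Trib3, a pseudokinase, also passed, at 1.03 and 0.92. At MK3 against MKP the median of the list was -0.09 beside -0.04 over all genes, with 5 positive, 7 negative and 0 called. At MK4 the median was 0.68, with 0 called. The count at MK6 was 0 without MKP replicate 1, where 3 of all genes were called in either direction. It was also 0 without MKP replicate 2, where 21 were, beside 535 with every array. It was 2 without MK6 replicate 3 (Ddit3 and Vldlr), with 147 of all genes, and 0 without MK6 replicates 1 and 3, with 49. It was 1 unscaled (Atf3), with 200, and 0 with the beta-actin covariate, with 0.

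Among the 4 tested genes of start codon selection none passed the test. Eif1b, a relative of the scanning factor eIF1, had signals of 384 and 313 at MKP, 246 and 366 at MK3, 359 and 319 at MK4, and 306, 458 and 490 at MK6. The groups overlapped (0.23 ± 0.27, adjusted p = 0.61). Eif1a, Eif1ax and Eif5 were at -0.15, -0.09 and 0.04. A second, dim probe set of Eif1ax was above the filter on 3 arrays and gave -1.05, not called. The other probe sets of Eif5, whose product activates GTP hydrolysis by eIF2, gave -0.46, -0.76 and -1.15, the last of them called over all probe sets (adjusted p = 0.046).

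Of 5 tested eEF1 genes none passed the test. Eef1a1, the general form of the factor that carries aminoacyl-tRNA, gave the brightest family probe set, with 10640 and 7729 at MKP, 11250 and 7576 at MK3, 8598 and 6858 at MK4, and 11130, 8942 and 12690 at MK6. The arrays of a stage differed as much as the stages did (0.25 ± 0.32, adjusted p = 0.65), and the sign was negative under quantile normalization (-0.18) and unscaled (-0.11). Eef1a2, the form typical of muscle and neurons, had 70.7 and 101 at MKP, 127 and 55.6 at MK3, 72.4 and 101 at MK4, and 289, 124 and 234 at MK6. It was the only tested member whose MK6 arrays all lay above both MKP arrays, though MK3 replicate 1 was brighter than MK6 replicate 2. The difference was 1.13 ± 0.39 (95% interval 0.28 to 1.99, adjusted p = 0.11), and it passed without MK6 replicate 2 (1.46, adjusted p = 0.031). Of the exchange factor genes, Eef1b2 was at -0.003 and Eef1d at -0.67, with -0.42 and -0.05 from the other tested probe sets of Eef1d. Eef1e1, whose product sits in the complex of tRNA synthetases, was at -0.61, and for this gene and Eef1d MK6 replicate 1 was the lowest of the 9 arrays.

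The translocation factor and its kinase were both lower at MK6, neither past the test. Eef2 had signals of 5614 and 4651 at MKP, 4618 and 3662 at MK3, 4231 and 3715 at MK4, and 3377, 3797 and 4340 at MK6. The MK6 arrays lay below both MKP arrays (-0.42 ± 0.26, adjusted p = 0.34). Eef2k, which inhibits eEF2 by phosphorylation, had 141 and 174 at MKP, 114 and 112 at MK3, 126 and 106 at MK4, and 76.6, 91.3 and 103 at MK6. The MK6 arrays were the lowest 3 of the 9, at -0.71 ± 0.24 (95% interval -1.24 to -0.19, adjusted p = 0.11). Eef1akmt1, a lysine methyltransferase of eEF1A, had 100 and 92.0 at MKP, 91.7 and 101 at MK3, 85.7 and 57.7 at MK4, and 44.8, 79.1 and 69.8 at MK6. Its difference was -0.51 ± 0.29 (adjusted p = 0.30), and quantile normalization, which chose another probe set, gave 0.30.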

How the data were processed

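The values are intensities on a linear scale of 1-colour Affymetrix MOE430A arrays, deposited by the authors. The submitters' processing notes name MAS5, without a version or settings. RNA was copied from an oligo-dT primer into biotin-labelled cRNA, per the labels' protocols. Each of the 9 arrays was placed in its stage by its title. Arrays were scaled to a common trimmed mean (2% off each end). Probe sets above 46.7 (40th percentile of scaled signal) on at least 2 arrays were kept, and the one with the highest mean log2 value stood for its gene. Symbols were updated from RefSeq (20352 of 20380 probe sets naming 1 gene matched; 691 naming several and 1555 naming none were left out). The pseudocount of 15.2 (20th percentile) makes folds of dim genes too small. One linear model over the 4 stages was fitted with limma 3.58.1 in R 4.3.3 (eBayes with trend, 5 residual degrees of freedom), adjusted over all 9397 genes by Benjamini-Hochberg at 0.05, and tested on simulated data. The number of arrays limits the precision.

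The members and lists were chosen with earlier results of these data known. Values on every array are given for members called in MK6 or MK4 against MKP, the 3 brightest and 3 dimmest, the largest MK6 minus MKP difference of each of 11 role groups, and Eif4ebp1, Eif4e, Eif2ak1, Eif2ak2, Eif5a, Eif6, Eef1a1, Eef1a2, Eef2 and Eef2k. Other members are named to account for the family. Of each other list the 4 largest differences could be named. Alternatives changed the pseudocount, filter, scaling, probe set choice, variance model, covariate and arrays.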

Additional observations from a re-analysis of the deposited data

How the results depend on the processing

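The count of 2 translation factor genes called in MK6 against MKP was 1 with arrays scaled to a common median, without the intensity trend or with the 2 stages fitted alone (each time Eif4a1), and 0 unscaled or with a beta-actin covariate, under which 0 genes of all passed. It ran from 0 to 4 with each array left out in turn: 0 without MKP replicate 1, MKP replicate 2 or MK6 replicate 3, and 4 without MK6 replicate 2 (Eef1a2, Eif4a1, Eif4e and Eif6). It was 14 without MK6 replicates 2 and 3, and 0 without MK6 replicates 1 and 3, a setting chosen after seeing the data; in both the lone MK6 array is assumed to vary like the other groups. Calls over all genes, 535 here, were 200 unscaled, 3 without MKP replicate 1, 21 without MKP replicate 2, 1089 without MK6 replicate 2, 147 without MK6 replicate 3, 1923 without MK6 replicates 2 and 3, and 49 without MK6 replicates 1 and 3, so single calls of the other lists rest on the same arrays. For MK6 against MK4 the count of 0 ran from 0 to 1 over single arrays left out and was 1 without MK6 replicates 2 and 3. Over any stage it ran from 0 to 1, and was 1 with unique probe sets preferred (Eif2s3x) and 2 without MK6 replicates 2 and 3. Several values changed sign, and not only those near 0, since Eef1akmt1 (-0.51 in the main fit) and Eif3l (-0.74) were among them. Eef1akmt1 was 0.30 with the 40th percentile pseudocount and with quantile normalization, and 0.33 with the stricter filter or unique probe sets preferred. Eif2ak1 was 0.0017 with that pseudocount, 0.03 by quantiles, 0.30 with the covariate and 0.31 without MK6 replicates 2 and 3. Eef1a1 was -0.18 by quantiles, -0.11 unscaled and -0.02 without MK6 replicates 1 and 3. Eif1b was -0.11 unscaled, -0.029 with the covariate and -0.17 without MK6 replicates 2 and 3. With the mean of a gene's probe sets Eif3l was 0.069 and Eif4ebp1 0.059. Eif2ak2 was 0.19 with the covariate and 0.074 without MK6 replicates 1 and 3, where Eif4ebp1 was 0.23. Over single arrays left out, Eif2ak1 ran from -0.16 to 0.15, Eif2ak4 from -0.40 to 0.20, Eif2s3y from -0.016 to 0.59 and Eif4ebp1 from -0.41 to 0.22. Eif4a1 and Eif6 stayed negative in all 25 alternatives. The cause of these shifts was not tested. No paired analysis was possible because the labels give no replicate numbers shared between stages.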

Other observations

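Genes that act next to these factors gave few calls in MK6 against MKP, where 2.76% of all genes were higher and 2.94% lower. Of 7 tested genes of termination, recycling and rescue none passed, all 7 differences were negative, and the median was -0.46, with Abce1, which splits ribosomes after termination, at 281 as its highest MK6 signal against 519 and 595 at MKP (-1.24 ± 0.33, adjusted p = 0.052, limma). Of 18 tested tRNA synthetase genes 1 fell, Farsa, the alpha chain of the phenylalanine enzyme, with 64.9, 150 and 65.6 at MK6 against 412 and 346 at MKP (-1.94 ± 0.35, adjusted p = 0.014). All 18 were negative at MK3 against MKP (median -0.33, none called), 15 of 18 with arrays scaled to a common median. Of 4 tested selenocysteine genes 1 fell, Eefsec, the elongation factor for that amino acid, with 49.6, 90.6 and 101 at MK6 against 212 and 168 at MKP (-1.14 ± 0.30, adjusted p = 0.0499).

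Of 8 tested genes listed as poly(A)-binding proteins and related factors, Pabpc4 fell (-0.96 ± 0.23, adjusted p = 0.037, limma). Dap, in that list but known as a growth-linked inhibitor of ribosomes, rose (1.11 ± 0.25, adjusted p = 0.031). It had 1880, 1530 and 1480 at MK6 against 724 and 765 at MKP. Pabpc1, the main poly(A)-binding protein, was at 0.22 ± 0.27. Of 5 tested mitochondrial factors 1 rose, Tufm, the mitochondrial EF-Tu, with 138, 143 and 188 against 86.2 and 58.1 (0.98 ± 0.25, adjusted p = 0.048). None passed among 11 tested mTORC1 and MAPK genes (median 0.15) or 6 tested genes of hypusine and diphthamide synthesis (median -0.16), which modify eIF5A and eEF2. Of the identity lists, 2 of 11 megakaryocyte genes rose, 6 of 12 neutrophil markers fell, 2 of 10 macrophage markers rose and 2 fell, 1 of 8 mast cell markers and 1 of 7 hepatocyte markers fell, and 0 of 6 erythroid markers passed.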
